A study of Gallus gallus with 60 samples.

Results

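Pectoral muscle of Tibetan chicken embryos was compared between incubation day 12 (E12) and day 15 (E15), with 3 samples at each stage. The fertile eggs were incubated for the study, and the labels give no treatment or genetic change. These 6 samples were chosen by stage from 60 small RNA libraries, which also cover older muscle, whole embryos and other tissues. The table of whole embryo and muscle stages lists 890 miRNAs, 687 known and 203 predicted from the reads. Of these, 650 (513 known and 137 predicted) were above 0 in at least 1 of the 6 samples. The remaining 240 were listed at 0 in all 6. Sex was not given in the labels.

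A miRNA is cut from a hairpin precursor whose arms, 5p and 3p, can both be kept. Usually 1 arm is loaded into the silencing complex, where bases near its 5′ end, the seed, select the messenger RNAs to be repressed, and the other arm is mostly lost. Skeletal muscle carries its own group, the myomiRs miR-1, miR-133, miR-206 and miR-499, which are switched on by the myogenic transcription factors and act on the balance of myoblast growth and fusion. In the chick breast the interval lies in the period when secondary fibres are laid down beside the primary fibres.

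Levels are given in TPM as deposited, which here are read numbers scaled to a common library total. Library totals were 9347754 to 11514871 reads at E12 and 9644079 to 10472098 at E15, and 3 reads, taken as the smallest detectable amount, corresponded to 0.261 to 0.321 TPM. The listed miRNAs took 62.3%, 42.8% and 43.1% of the library total in E12-1, E12-2 and E12-3, and 54.2%, 43.2% and 36.0% in E15-1, E15-2 and E15-3. E12-1 held the largest share of miRNA reads and E15-3 the smallest. Their mean sum was 493680 ± 111740 TPM (SD, n = 3) at E12 and 444540 ± 91475 TPM at E15, and the difference was smaller than the spread (exact two-sided permutation test, p = 0.7). The difference had the other sign without E12-1, at 15364 TPM.

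The muscle markers were present in all 6 samples, with a summed level of 34316 to 78894 TPM at E12 and 74316 to 100120 TPM at E15. gga-miR-1a-3p, a defining muscle miRNA, was listed at 0 in E12-1, E15-1 and E15-3 and at 119, 86.3 and 207 TPM in E12-2, E12-3 and E15-2. The predicted new-gga-miRNA-10 and new-gga-miRNA-16 were at 0 in the same libraries, while new-gga-miRNA-189 was at 0 in the other ones and at 395 to 661 TPM in these. gga-miR-21-5p was listed at 2116 TPM in E12-1 and at 0 elsewhere. These on-off values were left as values of single libraries. A principal component analysis of the 322 miRNAs above 0 in every sample placed E12-1 (9.41), E12-3 (5.34) and E12-2 (−0.39) against E15-1 (0.26), E15-2 (−5.51) and E15-3 (−9.11) on component 1, which held 44.6% of the variance. The stages overlapped there at E12-2 and E15-1.

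To ask which miRNAs changed between E12 and E15, limma was run on log2(TPM + 1). Calls needed a 2-fold difference or more and an unadjusted p no higher than 0.05. Differences are E15 minus E12 on that log2 scale, which understates changes of low miRNAs. In total 38 of 650 miRNAs were called (5.85%), 31 lower at E15 (4.77%) and 7 higher (1.08%). The 7 include both gga-miR-34b-5p and gga-miR-34c-5p, whose values are identical, so that these counts and those drawn from them hold the same values more than once. An unadjusted p of at most 0.05 alone was reached by 78 (12.0%). After Benjamini-Hochberg adjustment limma called 0 of 650 (0.0%), with a smallest adjusted p of 0.0983, and edgeR on the recovered reads also called 0. DESeq2 on the same reads called 19 at adjusted p, of which 13 were among the 38. With the spread estimated from the 39 muscle samples from E9 onward in place of 6, limma called 31 at adjusted p. Of these, 29 were among the 38. That setting assumes an equal spread at all muscle stages, which was not tested. Since no source says that the samples came from separate embryos, p-values measure only the spread between these samples, which may be technical.

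The number of falls depended on the scale. Over the 650 miRNAs the median difference was −0.13, and over the 180 with a mean of at least 10 TPM it was −0.30, with 121 below 0 and 59 above. Centring each sample on its median miRNA moved every difference up by 0.19. The calls were then 16 higher and 14 lower, and 21 of the 38 were among them. A shift of 0.19 cannot turn the sign of a 2-fold difference. That the 21 and the 31 falls kept their direction was therefore fixed in advance and adds no support. DESeq2 size factors gave 20 higher and 21 lower. Centred differences are therefore printed beside the main ones below.

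**Figure D1:**
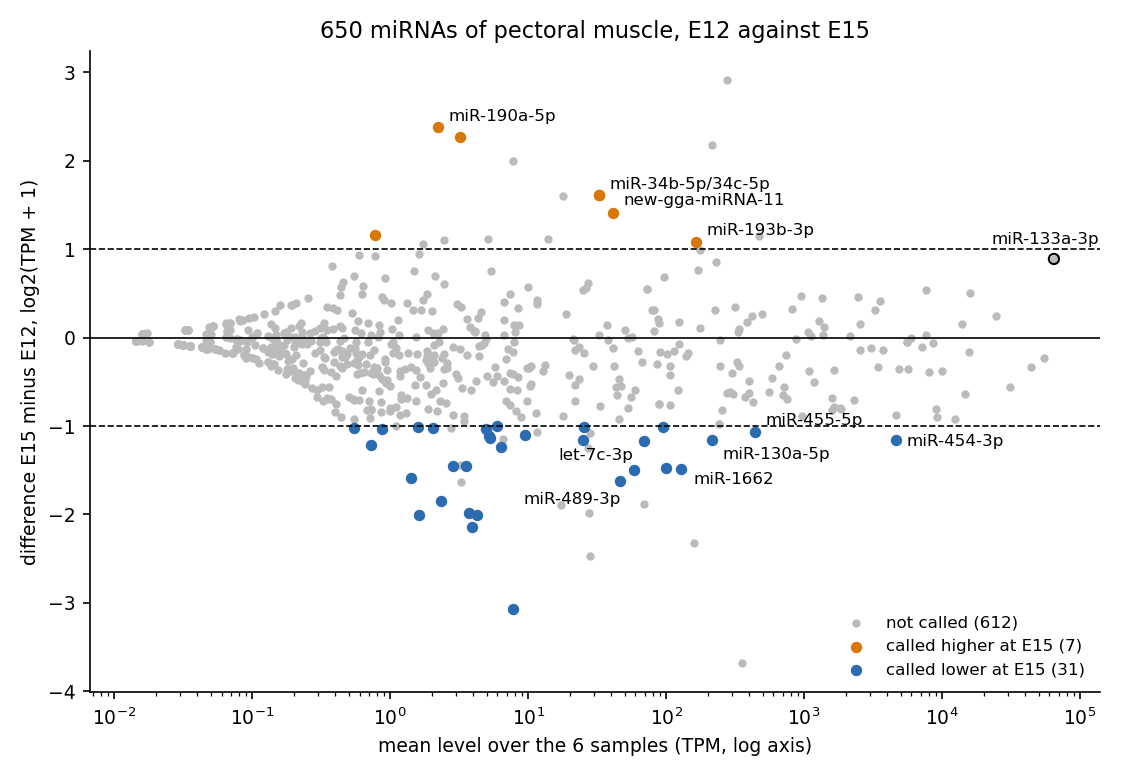
The difference E15 minus E12 on the log2(TPM + 1) scale is plotted against the mean level over the 6 samples (TPM, log axis) for 650 miRNAs, with dashed lines at a 2-fold difference. The 31 called falls (blue) include gga-miR-454-3p at −1.16, the 7 called rises (orange) include gga-miR-193b-3p at 1.09, and gga-miR-133a-3p (ringed) lies just under the upper line at 0.89.

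Of the 38 called, 17 reached a mean of 10 TPM in the higher stage, and in 14 of these the samples of the stages did not overlap. These 14 were 12 falls and 2 rises, and they are described first. Over all 650 miRNAs the samples did not overlap in 101 (15.5%), 92 with E15 lower (14.2%) and 9 with E15 higher (1.38%). After centring all 14 kept a p of at most 0.05, but only 4 of the 12 falls and both rises kept the 2-fold difference.

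The most abundant fall was that of gga-miR-454-3p, which shares its seed with the 3p arms of miR-130 and miR-301. It was at 9207, 4204 and 6042 TPM in E12-1, E12-2 and E12-3, and at 3514, 2365 and 2527 TPM in E15-1, E15-2 and E15-3. The lowest E12 sample was above the highest E15 sample. The mean was 6484 ± 2531 TPM (SD, n = 3) at E12 and 2802 ± 622 TPM at E15, 2.31-fold lower, with a log2 difference of −1.16 (SE 0.36, limma adjusted p = 0.330) and −0.97 after centring. It ranged from −0.81 to −1.43 over the 19 other settings and kept the call in 12. Without E12-1 it was −0.87 and without E15-2 −1.05, and neither was called. Since tissue was sequenced, fewer cells of a type and less RNA per cell cannot be told apart here.

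The precursors of gga-miR-454 and gga-miR-130a lie within 10000 bases of each other in the RefSeq annotation of assembly GRCg7b, in which 498 of the 513 known miRNAs were matched to a precursor by name. From gga-miR-130a the 5p arm fell, from 413, 228 and 256 TPM to 148, 121 and 119 TPM, with no overlap. Its log2 difference was −1.16 (SE 0.33, limma adjusted p = 0.306), about that of gga-miR-454-3p, and −0.97 after centring. The 3p arm, at 1084, 807 and 892 TPM and then 703, 550 and 479 TPM, did not overlap either. It stayed under 2-fold, at −0.69.

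Across the miR-130, miR-301 and miR-454 list, which counts both arms, 9 of 12 members were above 0. Of these, 3 fell, 0 rose and 6 were not called. The falls of gga-miR-130a-5p and gga-miR-301a-5p were on 5p arms, which do not carry the shared seed. Among the 3p arms only gga-miR-454-3p was called. gga-miR-130a-3p, gga-miR-301a-3p and gga-miR-130c-3p were at −0.69, −0.62 and −0.32. The median difference of the 9 was −0.69, or −0.50 after centring, against −0.13 and 0.06 over all 650. Of the 9, 7 had a mean of at least 10 TPM, with the same medians. Over all 180 miRNAs of that level the medians were −0.30 and −0.11. The third call was the sparse gga-miR-301a-5p, at 7.99, 7.60 and 7.04 TPM and then 2.696, 4.28 and 2.01 TPM. gga-miR-301b-3p stood on the other side, with a difference of 0.31 that was not called. Within each sample the log2 ratio of gga-miR-454-3p to gga-miR-301b-3p, chosen after the values were seen, was 6.36, 6.25 and 6.78 at E12 and 4.84, 4.78 and 5.35 at E15. It fell by 1.47 (exact two-sided permutation test, p = 0.1, the smallest that 3 against 3 allows), and rescaling the libraries hardly alters it. gga-miR-454-3p was itself known to fall without overlap, so this p-value adds no support.

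The steepest of the 12 falls was that of gga-miR-489-3p, a miRNA that in the mouse holds muscle satellite cells in quiescence. It was at 102, 51.5 and 58.0 TPM at E12 and at 22.7, 27.5 and 15.1 TPM at E15, a mean 3.23-fold lower. The log2 difference was −1.62 (SE 0.40, limma adjusted p = 0.198) and −1.43 after centring. The E15 samples all lay below 28 TPM and the E12 samples all above 51 TPM. It kept the call in 18 of 19 settings and lost it only without E15-2 and E15-3, where 1 sample was left at E15.

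gga-miR-1662 and gga-miR-1329-5p, known from birds with no role given here, fell by similar amounts. gga-miR-1662 was at 241, 128 and 200 TPM at E12 and 71.3, 64.7 and 58.5 TPM at E15, with a log2 difference of −1.49 (SE 0.34, limma adjusted p = 0.149; −1.30 centred). gga-miR-1329-5p was at 164, 109 and 171 TPM and then 64.5, 48.6 and 44.2 TPM, with −1.47 (SE 0.33, limma adjusted p = 0.149; −1.28 centred). In both the stages were clearly apart, and both kept the call in 18 of 19 settings.

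The other falls of this group stayed closer to the limit. gga-miR-146c-3p was at 128, 85.8 and 75.0 TPM and then 47.2, 45.6 and 32.1 TPM (−1.17, −0.98 centred), and gga-miR-216b was at 48.5, 17.3 and 41.0 TPM and then 14.4, 17.1 and 11.3 TPM (−1.16, −0.97 centred). The E12-2 value of gga-miR-216b was barely above the highest E15 value. gga-miR-455-5p, from a hairpin best known in cartilage, was at 966, 391 and 455 TPM and then 347, 290 and 187 TPM (−1.06, −0.87 centred). gga-miR-1786 was at 49.2, 34.9 and 20.5 TPM and then 19.4, 12.5 and 16.04 TPM (−1.02, −0.82 centred). gga-miR-6599-3p, the lowest, was at 12.3, 15.0 and 12.5 TPM and then 8.61, 4.38 and 4.58 TPM (−1.10, −0.91 centred). All 5 were under the 2-fold limit after centring.

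**Figure D2:**
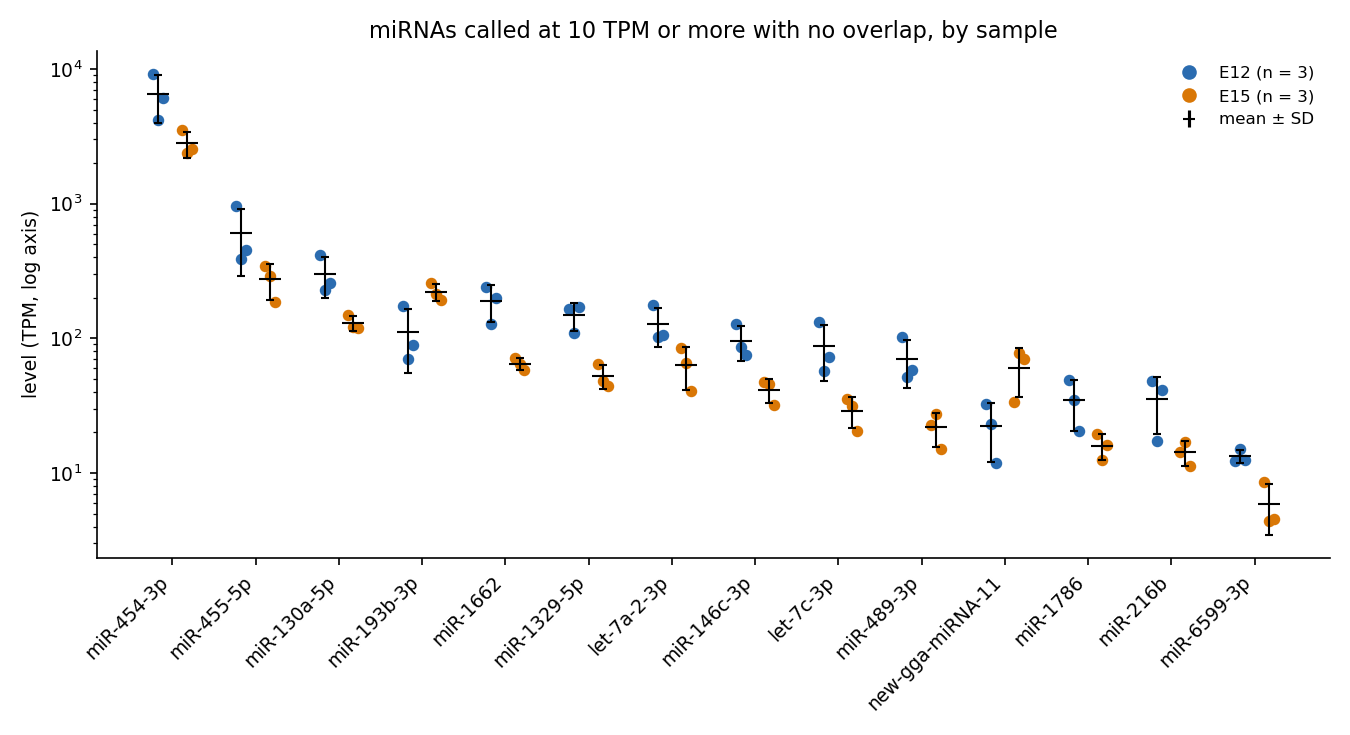
Levels (TPM, log axis) are shown for the 14 called miRNAs that reached 10 TPM without overlap, in each E12 sample (blue) and E15 sample (orange), with mean ± SD (n = 3). gga-miR-454-3p is the most abundant, at 6484 TPM and then 2802 TPM, and gga-miR-193b-3p and new-gga-miRNA-11 are the only rises.

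Both let-7 calls fell on minor arms. The let-7 miRNAs restrain growth and rise in many tissues as they mature, and their 5p arm is the one usually loaded. gga-let-7c-3p was at 131, 57.6 and 72.9 TPM at E12 and 35.2, 31.2 and 20.6 TPM at E15, with a log2 difference of −1.50 (SE 0.41, limma adjusted p = 0.281) and −1.31 after centring. gga-let-7c-5p, at 4066, 2712 and 2745 TPM and then 3823, 2928 and 2132 TPM, differed by −0.11, less than the spread between replicates. gga-let-7a-2-3p was at 175, 102 and 106 TPM and then 84.9, 66.0 and 40.5 TPM (−1.01, −0.81 centred).

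All 14 let-7 members were above 0, of which 2 fell, 0 rose and 12 were not called, with a median difference of −0.11 that turned to 0.08 after centring. The 6 members named as 5p arms had a median of −0.04 (0.15 centred), and the 7 named as 3p arms −0.75 (−0.56 centred). gga-let-7a-3p and gga-let-7k-3p have identical values, as do gga-let-7a-5p and gga-let-7j-5p, so these cannot be told apart. The exception among the more abundant 3p arms was gga-let-7j-3p, with a difference of 0.03.

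The 5p and 3p arms of the same name were then set against each other within each sample. Such a ratio is nearly free of the scaling of the libraries. Arms were paired by name alone, and a pair is called a hairpin here. Where an arm can come from more than 1 precursor, its ratio can mix precursors. This holds for gga-let-7a and gga-let-7k, whose arms have values identical to those of other members. For 31 hairpins both arms had a mean of at least 10 TPM, and limma was run on the log2 ratio of the 5p to the 3p arm. Of these, 2 passed at adjusted p (6.45%), and in 10 the samples did not overlap (32.3%). The gga-let-7c ratio was 4.94, 5.53 and 5.22 at E12 and 6.72, 6.51 and 6.62 at E15, so the 5p arm gained 1.39 on the log2 scale (SE 0.20, limma adjusted p = 0.00380). The gain was 1.24 to 1.54 with each replicate left out in turn, and it passed each time. With a term for the replicate number none of the 31 ratios passed, although the numbers did not pair the samples.

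The second was gga-miR-181a, which promotes myoblast differentiation in the mouse. Whether the arms of gga-miR-181a come from a single precursor was not checked, so a shift between precursors cannot be told from a shift between arms. Its log2 arm ratio was 4.86, 4.74 and 4.61 at E12 and 5.35, 5.63 and 5.62 at E15, a gain of 0.80 (SE 0.16, limma adjusted p = 0.0204), while neither arm alone was called. It did not pass without E12-3, E15-2 or E15-3, where the adjusted p was 0.0928, 0.0771 and 0.0885. The other large gains were those of gga-let-7k (1.21), gga-let-7a (0.71) and gga-miR-146c (0.67), and none passed. gga-let-7k-5p stood at 5752 TPM in E15-2 against 1423 to 2189 TPM in the other libraries. The largest shifts toward the 3p arm were those of gga-miR-99a (−0.61), gga-miR-130c (−0.61), gga-miR-92 (−0.54), gga-miR-130a (−0.47) and gga-miR-455 (−0.42), and none passed.

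**Figure D3:**
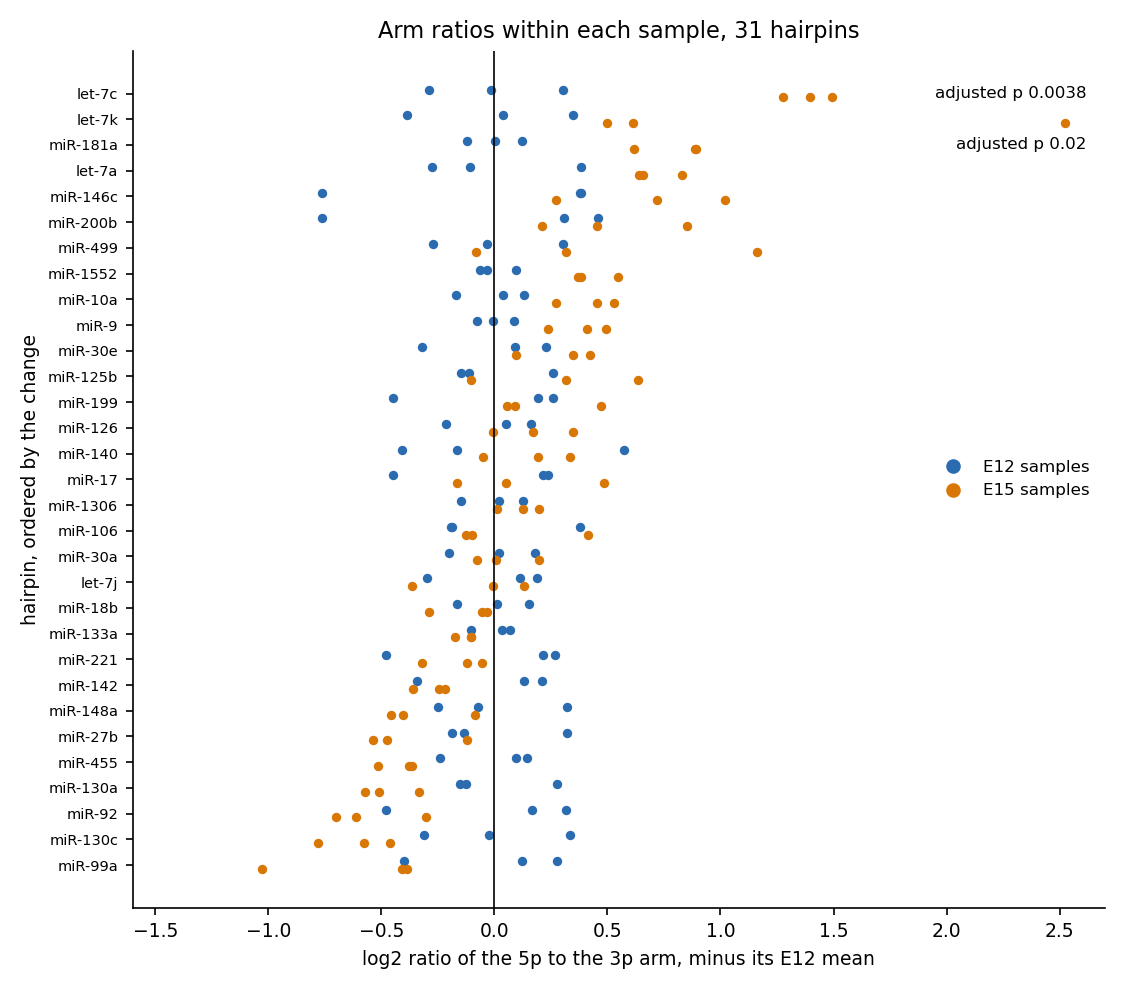
The log2 ratio of the 5p to the 3p arm, less its E12 mean, is shown for each E12 sample (blue) and E15 sample (orange). The 31 hairpins, with arms paired by name, are ordered by the change. gga-let-7c gained 1.39 and gga-miR-181a 0.80, the 2 that passed at adjusted p.

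Among the called miRNAs with a measured partner arm, 8 of the falls were on the less abundant arm and 7 on the more abundant arm, out of 148 and 150 such arms. The 5 rises were all on the more abundant arm, and gga-miR-34b-5p and gga-miR-34c-5p among them have identical values. Of the 148 less abundant arms only 31 had a mean of at least 10 TPM, and the scale understates changes of low miRNAs. Among arms of at least 10 TPM the median difference was −0.55 for 31 minor arms and −0.17 for 83 major arms, and 3 of each fell.

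Of the rises, gga-miR-193b-3p was the most abundant. It was at 174, 70.1 and 88.9 TPM at E12 and at 256, 213 and 193 TPM at E15, so that the lowest E15 sample was above E12-1. The mean was 111 ± 55.1 TPM (SD, n = 3) and then 221 ± 32.2 TPM, and the log2 difference was 1.09 (SE 0.39, limma adjusted p = 0.410) and 1.28 after centring. It fell under the 2-fold limit or the p threshold in 7 of 19 settings, and without E12-2 it was 0.81. Leaving out E12-3, E15-1 or E15-2 also ended the call, at 0.98, 0.98 and 1.11.

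The precursor of gga-miR-365 lies within 10000 bases of that of gga-miR-193b, and in mammals the pair is known from brown fat. gga-miR-365-3p was at 184, 89.0 and 94.3 TPM and then 117, 95.8 and 101 TPM, a difference of −0.15 that was not called. The log2 ratio of gga-miR-193b-3p to gga-miR-365-3p was −0.09, −0.34 and −0.08 at E12 and 1.12, 1.15 and 0.92 at E15. This ratio was chosen after the values were seen. It was higher at E15 by 1.23 (exact two-sided permutation test, p = 0.1, the smallest possible). gga-miR-193b-3p was itself picked for rising without overlap, so this p-value adds no support. In the miR-193 and miR-365 list 6 of 7 members were above 0, with 1 rise and 5 not called, and the median was 0.30 (0.49 centred).

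new-gga-miRNA-11, a predicted miRNA without a name in the annotation, was at 32.6, 23.0 and 11.9 TPM and then 33.5, 77.7 and 70.5 TPM. Its log2 difference was 1.41 (SE 0.49, limma adjusted p = 0.404), and 1.60 after centring. E12-1 and E15-1 were nearly equal, so the rise came from E15-2 and E15-3.

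The 3 called miRNAs of at least 10 TPM whose samples overlapped were gga-miR-34b-5p, gga-miR-34c-5p and new-gga-miRNA-24. gga-miR-34b-5p and gga-miR-34c-5p, from neighbouring precursors, have identical values, 19.2, 16.9 and 7.04 TPM at E12 and 16.2, 72.0 and 65.7 TPM at E15, with a difference of 1.62 (1.81 centred). Only E15-2 and E15-3 were high. new-gga-miRNA-24 was at 22.6 and 24.2 TPM in E12-2 and E12-3 and listed at 0 in E12-1 and at E15.

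The neuronal miRNAs were also highest in E15-2 and E15-3. gga-miR-9-5p was at 152, 92.2 and 78.5 TPM at E12 and at 84.4, 332 and 314 TPM at E15, and gga-miR-124a-3p was at 2.08, 4.07 and 1.62 TPM and then 2.28, 11.5 and 9.17 TPM. Of 7 members of the miR-9 and miR-124 list 3 were above 0 and none was called, and the summed level was 94.4 to 184 TPM at E12 and 99.5, 388 and 368 TPM at E15. gga-miR-153-3p, at 38.8 and 38.1 TPM in these libraries and 2.57 to 11.9 TPM in the others, and the called gga-miR-137-3p, at 9.15 and 10.03 TPM and listed at 0 in the others, followed the same libraries. These 2 were picked once their values were known. The part of nerve tissue in the rises of gga-miR-34b-5p, gga-miR-34c-5p, gga-miR-137-3p and new-gga-miRNA-11 was not tested. Without E15-2 and E15-3, which leaves 1 sample at E15, 18 miRNAs were called, 11 of them among the 38.

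The remaining called miRNAs, 18 falls and 3 rises, had means under 10 TPM in both stages. gga-miR-190a-5p was listed at 0 in the E12 samples and was at 6.95, 3.80 and 2.67 TPM at E15, with the smallest p of all (limma adjusted p = 0.0983). It was also listed at 0 at E9 and reached 134 ± 19.6 TPM (SD, n = 3) on day 36 after hatching (D36). gga-miR-1458 was at 4.34, 4.39 and 3.90 TPM and then 0.93, 0 and 0.57 TPM. gga-miR-1677-3p was at 11.4, 8.24 and 8.28 TPM and then 4.56, 2.63 and 3.06 TPM. Of all 38, 4 were listed at 0 in all E15 samples and 3 in all E12 samples, so that their fitted fold changes depend on the value added before the logarithm.

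The myomiRs as a list were not called. Of 13 listed, 10 were above 0 in these samples, and none passed the test with a 2-fold difference. The median difference of the 10 was 0.13 (0.32 centred), with 8 above 0 and 2 below. These 10 include gga-miR-1a-2-5p and gga-miR-133c-5p, which stayed under the smallest detectable amount. The 8 with a mean of at least 10 TPM had a median of 0.42 (0.61 centred), with 6 above 0 and 2 below. gga-miR-1a-3p, listed on and off between libraries, is counted in both medians at −1.88. gga-miR-133a-3p had the highest mean over the 6 samples and at E15, while at E12 gga-miR-92-3p and gga-miR-125b-5p had higher means. It was at 73212, 31466 and 36933 TPM at E12 and 95174, 70500 and 80647 TPM at E15. E12-1 lay above the lowest E15 sample. The log2 difference was 0.89 (SE 0.36, limma adjusted p = 0.410), short of 2-fold.

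That call depended on the scaling and on E12-1. After centring, gga-miR-133a-3p was 1.08 higher and was called, as it was with DESeq2, with edgeR and TMM scaling, and after rescaling over the listed miRNAs. Without E12-1 it was also called, at 1.26. As a share of the listed miRNAs it took 11.8%, 7.36% and 8.58% at E12 and 17.6%, 16.3% and 22.4% at E15, without overlap. The mean share was 9.23 ± 2.27% (SD, n = 3) and then 18.8 ± 3.20% (exact two-sided permutation test, p = 0.1, the smallest possible). Relative to gga-miR-454-3p, a ratio chosen after the values were seen, its log2 ratio was 2.99, 2.90 and 2.61 at E12 and 4.76, 4.897 and 5.00 at E15.

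The other arm, gga-miR-133a-5p, was at 214, 80.9 and 105 TPM and then 246, 183 and 198 TPM (0.76, not called). The ratio of the 5p to the 3p arm moved by only −0.13. gga-miR-133c-3p, with 1698 to 3531 TPM at E12 and 2259 to 2832 TPM at E15, and gga-miR-133b, with 220 to 483 TPM and then 290 to 412 TPM, differed by 0.16 and 0.10. Neither difference exceeded the spread between replicates. gga-miR-499-5p, which in mammals lies in an intron of a slow myosin gene, was at 589, 145 and 190 TPM and then 1098, 432 and 379 TPM. Its difference of 1.15 (SE 0.62, limma adjusted p = 0.507) missed the threshold and was called after centring, at 1.34.

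gga-miR-206, the myomiR of developing and regenerating muscle, was at 733, 547 and 193 TPM and then 309, 350 and 256 TPM. It varied more within E12 than between the stages and was not called (−0.49, limma adjusted p = 0.694). Its precursor neighbours that of gga-miR-133b. gga-miR-1a-2-5p and gga-miR-133c-5p did not reach 0.11 TPM in any sample. The listing of gga-miR-1a-3p, described above, allows no comparison.

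**Figure D4:**
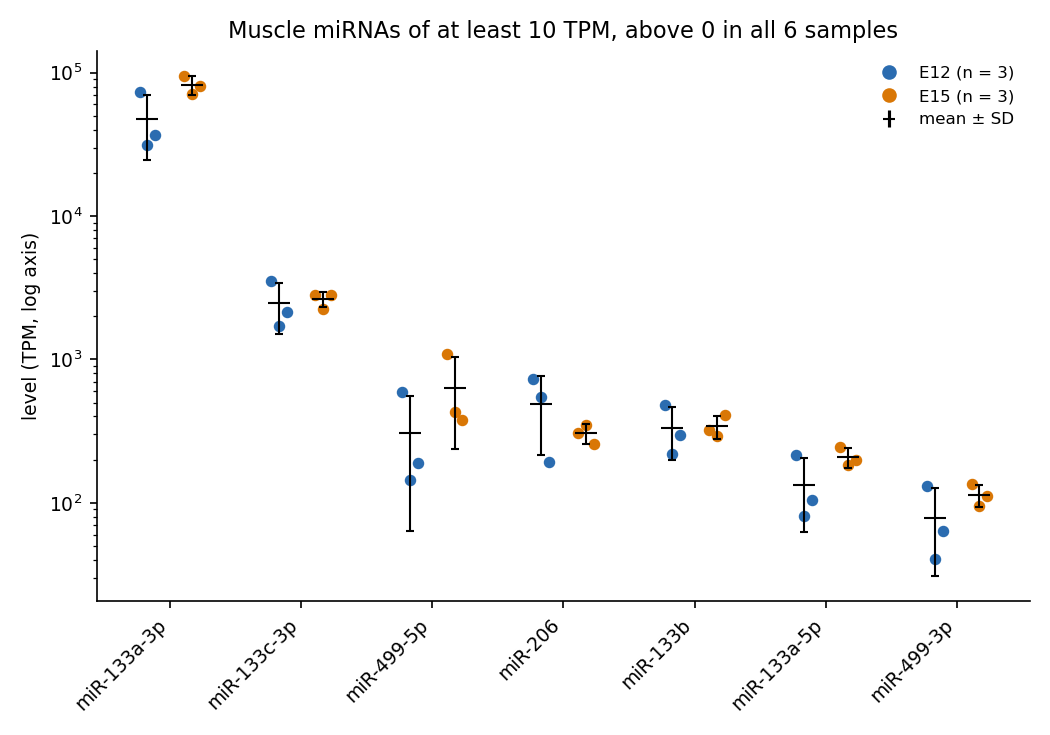
Levels (TPM, log axis) of the 7 muscle miRNAs of at least 10 TPM that were above 0 in all 6 samples, for E12 (blue) and E15 (orange), with mean ± SD (n = 3). gga-miR-133a-3p is far above the others, and its E12-1 value of 73212 TPM overlaps the E15 range.

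The 10 most abundant miRNAs of each sample held 62.0% to 63.4% of the listed level at E12 and 62.2% to 67.9% at E15, and none of the 10 with the highest mean over the 6 samples was called. In that order gga-miR-133a-3p was followed by gga-miR-92-3p of the proliferative miR-17-92 cluster, at 52852 to 64890 TPM and then 41352 to 67887 TPM (−0.23). gga-miR-125b-5p was at 36103 to 73017 TPM and then 33678 to 46382 TPM (−0.33), gga-miR-199-3p at 28109 to 48377 TPM and then 19427 to 29785 TPM (−0.56), and gga-miR-181a-5p at 17714 to 31199 TPM and then 20231 to 29899 TPM (0.24). The ranges of these 4 overlapped between the stages. gga-miR-128-3p (−0.64) and gga-miR-100-5p (−0.92) did not overlap, and both stayed under the 2-fold limit. gga-miR-26a-5p (−0.16), gga-miR-10b-5p (0.15) and the epithelial gga-miR-205a (0.51) overlapped.

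Of the 25 lists of families, clusters and cell type markers, 5 held a called miRNA and 2 held more than 1. In all, 8 of the 38 calls were in a list. The lists are short and 5.85% of all 650 miRNAs were called, so these counts are not read as a lack of calls. The miR-17-92 and miR-106-363 clusters, which drive proliferation, had 14 of 18 members above 0, none called, with a median of −0.39 (−0.20 centred) and 12 below 0. The list of miR-221 and miR-222, which repress a cell cycle inhibitor in mammals, had 5 of 5 members above 0 and none called (median −0.38, −0.19 centred). gga-miR-222a was its most abundant member, at 15186, 10115 and 10733 TPM and then 8184, 6700 and 4636 TPM, without overlap, and with −0.90 it missed the 2-fold limit (limma adjusted p = 0.410).

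In the miR-15 and miR-16 family 1 of 10 members fell, the sparse gga-miR-15c-3p, and the median was −0.36 (−0.17 centred). gga-miR-16-5p differed by −0.80 (limma adjusted p = 0.410) without overlap. The miR-103 and miR-107 list, tied to insulin response in mammals, had 4 of 5 members above 0, none called, with a median of −0.67 (−0.48 centred). gga-miR-103-3p was at 2896, 1722 and 1706 TPM and then 1420, 1167 and 996 TPM, without overlap, at −0.79 (limma adjusted p = 0.410).

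The miR-99, miR-100 and miR-125 list had all 6 members above 0 and below 0 in difference, none called, at a median of −0.47 (−0.28 centred). The precursors of gga-let-7c and gga-miR-99a are neighbours, as are those of gga-let-7a-2 and gga-miR-100. gga-miR-99a-5p differed by −0.71 and gga-miR-100-5p by −0.92, beside −1.50 for gga-let-7c-3p and −1.01 for gga-let-7a-2-3p. gga-miR-100-5p was at 21924, 11527 and 14609 TPM and then 11416, 9784 and 4928 TPM, so the stages were apart by a small gap.

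No member was called in the other lists of families. The 7 members of the miR-29 family, which represses collagen genes in mammals, were all above 0 in difference, at a median of 0.11 (0.30 centred). Its abundant gga-miR-29a-3p and gga-miR-29c-3p have identical values, at 76.4, 77.7 and 29.6 TPM and then 70.4, 98.0 and 82.6 TPM. The medians were −0.28 for the mesenchymal miR-199 and miR-214, −0.36 for miR-10 and miR-196 of the Hox clusters, −0.56 for miR-181 and −0.16 for miR-26 and miR-101, the last turning to 0.03 after centring. They were 0.01 for miR-30 and 0.09 for miR-23, miR-27 and miR-24. Of miR-302 and miR-367, which mark pluripotent cells, all 7 listed members were at 0 in the 6 samples.

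Markers of other cell types varied between single libraries. The epithelial list had 9 of 9 members above 0, with none called, and its summed level was 6101, 62596 and 2070 TPM at E12 and 13570, 17732 and 5973 TPM at E15. gga-miR-205a, an epidermal miRNA, reached 56768 TPM in E12-2, against 1371 to 15748 TPM in the other samples. It took 13.3% of the listed level there. Without E12-2 the calls numbered 50, and without E15-3, which had the lowest miRNA content, 19.

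The cartilage list, miR-140 and miR-455, had 4 of 4 members below 0 in difference, 1 of them called (gga-miR-455-5p), at a median of −0.73 (−0.54 centred). Its summed level was 18739, 9144 and 8895 TPM at E12 and 10234, 8514 and 3218 TPM at E15. gga-miR-140-3p made up most of it, and its stages overlapped, at 8150 to 16966 TPM and then 2870 to 9565 TPM. The part of cartilage in the fall of gga-miR-455-5p was not tested.

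The vessel list held only the 2 arms of gga-miR-126, and the white blood cell list only the arms of gga-miR-142 and gga-miR-155. Markers of vessels were at 1709 to 3018 TPM and then 1848 to 3320 TPM. Those of white blood cells were at 132 to 257 TPM and then 144 to 278 TPM. Medians were 0.10 in both lists, with no call. The red blood cell list held only the 2 arms of gga-miR-144. They summed to 13.3 to 22.1 TPM at E12 and to 38.99, 22.1 and 0 TPM at E15, where E15-3 listed both at 0. As with the on-off values above, this 0 was left as a value of a single library. gga-miR-122-5p, of liver, was at 362, 155 and 54.3 TPM and then 203, 328 and 273 TPM. gga-miR-2954, which lies on the Z chromosome and is higher in male birds, was at 4782 TPM in E12-3 and at 631 to 1492 TPM in the other libraries.

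**Figure D5:**
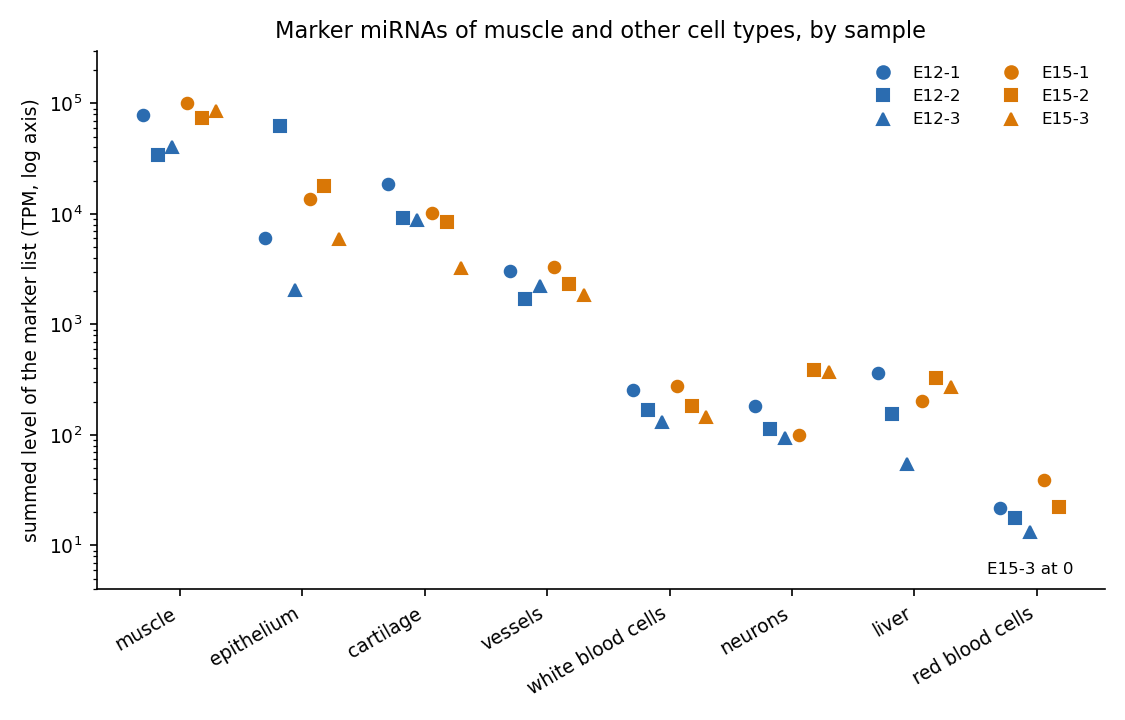
Summed levels (TPM, log axis) of the marker miRNAs of muscle and of 7 other cell types are shown for each sample, E12 in blue and E15 in orange, with a symbol for each replicate number. The epithelial sum peaks in E12-2 at 62596 TPM, and the neuronal sum is highest in E15-2 and E15-3 at 388 and 368 TPM. The red blood cell sum, which holds only the arms of gga-miR-144, is listed at 0 in E15-3.

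The number of miRNAs above 0 was 526, 473 and 472 at E12 and 465, 451 and 400 at E15, without overlap. This number depends on the miRNA reads of a library. They were 7170297, 3997906 and 4524906 at E12 and 5224548, 4436142 and 3771351 at E15. The numbers were not corrected for this, and its part in the difference was not tested. The mean numbers of miRNAs above 0 were 490 ± 30.9 (SD, n = 3) and 439 ± 34.2 (exact two-sided permutation test, p = 0.1, the smallest possible). Counting from 1 TPM the means were 335 and 302, and from 10 TPM 180 and 170 (exact permutation test, p = 0.4), where the stages overlapped.

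The neighbouring intervals share the samples of E12 or of E15, from which the 14 were chosen, so the values of each are given side by side. Between E9 and E12, 95 of 704 miRNAs were called (13.5%), 26 higher at E12 (3.69%) and 69 lower (9.8%), and 16 at adjusted p (2.27%). After centring the balance turned, with 84 higher, 35 lower and 65 at adjusted p. The 16 became 26 without E9-1, 7 without E9-2 and 2 without either E9-3 or E12-3. Between E15 and E18 it was 36 of 603 (5.97%), 6 higher at E18 (0.995%) and 30 lower (4.98%). Here too the direction depended on the scale, since centring gave 54 higher and 7 lower, 49 at adjusted p, and only 13 were among the 36. Of the 12 falls, 10 were not called between E9 and E12, a share close to that of all miRNAs there, and none was called between E15 and E18, where few of all miRNAs were. gga-miR-454-3p had its E9 level at 6088 ± 3116 TPM (SD, n = 3) and its E18 level at 2319 ± 156 TPM. By D36, 9 of the 12 were below all E15 samples, beside 27.4% of the 650. The 650 include miRNAs at 0 in an E15 sample, which cannot go lower, so the shares are not alike. Only 400 were above 0 in E15-3. Among the 9 were gga-miR-454-3p at 430 ± 129 TPM and gga-let-7c-3p at 1.65 ± 0.20 TPM.

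Exceptions were gga-miR-455-5p, called lower already between E9 (1909 ± 206 TPM) and E12, and gga-miR-1786, called higher between E9 (10.8 ± 3.72 TPM) and E12. gga-miR-1329-5p was at 77.5 ± 22.1 TPM at E9, 148 ± 34.05 TPM at E12, 52.4 ± 10.7 TPM at E15 and 59.4 ± 11.6 TPM at E18. gga-miR-193b-3p was called in all 3 intervals, higher, higher and then lower. It went from 38.4 ± 16.6 TPM at E9 through 111 and 221 TPM to 116 ± 54.4 TPM at E18. The last difference was at the 2-fold limit (−1.02, limma adjusted p = 0.391), in an interval where the direction of calls depended on the scale. gga-miR-133a-3p rose between E9 and E12, from 9538 ± 2703 TPM, and the difference was 2.24, beside 0.89 from E12 to E15 and 0.93 from E15 to E18, where it missed the 2-fold limit.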

How the data were processed

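Small RNA libraries of pectoral muscle at E12 and E15 (n = 3 each, by the labels) were compared. The authors trimmed adapters with cutadapt, kept reads of 18 to 30 nt, removed other small RNAs with bowtie2, and assigned known miRNAs by miRBase version 21 and predicted ones by miRDeep2 (score of at least 5). The deposited TPM values are RPM values. In each of the 6 samples 100% of values were whole multiples of 1 read within 0.05 reads, which gave the reads and library totals; what the total counts was not given in the sources used here. The design table assumed TPM, and the same test serves RPM.

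Differences were tested with limma 3.58.1 on log2(value + 1) with a mean-variance trend (R 4.3.3), over miRNAs above 0 in at least 1 of the 6 samples. edgeR 4.0.16 and DESeq2 1.42.0 on recovered reads were alternatives, as were other scalings, filters, pseudocounts and left-out replicates. Named were the myomiRs and gga-miR-454-3p, up to 12 rises and 12 falls called with a mean of at least 10 TPM and no overlap, the 10 most abundant, up to 4 members per list, and the 5 largest arm shifts each way. The members, lists and tests were chosen with earlier results of these data known. Others (miRNAs listed at 0, low or overlapping calls, neuronal miRNAs, partner arms and the log2 ratios between miRNAs) were chosen after their values were seen. Counts of reads in any replicate pair differed by far more than sampling noise. Recovered reads gave 55 calls with edgeR on library totals, 42 with TMM and 41 with DESeq2. Sequences were not printed. Figures used Python 3.11.15 and Matplotlib 3.10.9.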

Additional observations from a re-analysis of the deposited data

How the results depend on the processing

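The count of 38 calls between E12 and E15 stayed within 1.5 times under most settings and moved under 5. It was 63 with a pseudocount of 0.1, 24 after rescaling without gga-miR-133a-3p, 0 at adjusted p, 18 without E15-2 and E15-3 (chosen after seeing the data), and 19 to 50 with each replicate left out, lowest without E15-3. edgeR called 55 with library totals and 42 with TMM, and DESeq2 41, of which 29, 22 and 21 were among the 38. With each replicate left out, 17 to 29 were among the 38. Similar counts therefore did not mean the same miRNAs. A term for the listing of gga-miR-1a-3p, also chosen after seeing the data, gave 36, of which 28 were among the 38. Samples with the same replicate number correlated at 0.38, 0.42 and −0.18 in their deviations, so the numbers did not pair them. With the replicate block limma called 41, 36 of them shared, and 0 of 31 arm ratios at adjusted p in place of 2, which numbered 10 with the listing term and 1 to 4 with each replicate left out. Between E9 and E12 the 95 calls became 94 with the replicate block (3 at adjusted p), 119 after centring, 16 at adjusted p and 72 to 100 with a replicate left out. Between E15 and E18 the 36 became 34 with the block, 61 after centring (49 at adjusted p), without centring 0 at adjusted p (75 at an unadjusted p) and 25 to 36. No setting reversed a called miRNA among the 103 named. These called miRNAs were picked for samples that did not overlap between the stages. Leaving out replicates or centring therefore could not reverse them, and this adds no support. Of the 14 described in full, 7 lost the call without E12-1, 3 without E12-2, 5 without E12-3, 2 without E15-1, 8 without E15-2, 7 without E15-3 and 8 after centring. Leaving out each replicate gave differences of −97743 to 15364 TPM in the summed level, −64.8 to −32.3 in the number detected and 7.72 to 10.8 percentage points in the share of gga-miR-133a-3p. With 3 samples a stage, exact tests cannot go below p = 0.1.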
